A study of Drosophila melanogaster with 4 samples.

Results

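Broad RPD3 domains were defined as enriched clusters of 6000 bp or more in the authors' combined cluster list, with width counted from first to last base on any sequence. There were 570 such domains among 7386 enriched clusters, or 7.72% of the clusters and 21.0% of their covered length (4.68 of 22.3 Mb). The data are chromatin immunoprecipitation with sequencing (ChIP-seq) of head nuclei from Drosophila melanogaster, strain Oregon-R, wild type, mixed adult stage, with the antibody RPD3-Q3451. The samples are 2 RPD3 ChIP replicates and 2 inputs, which are chromatin without immunoprecipitation, and each input serves 1 ChIP replicate. All 4 share strain, genotype and stage. Flies came from population cages on an overlapping 22-day adult cycle, so heads of many animals were pooled, and the labels give neither sex nor exact age. They do not say whether the replicates came from separate fly populations, so differences between them may be technical.

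Like its mammalian counterpart HDAC1, RPD3 is a histone deacetylase, an enzyme that removes acetyl groups from histone tails. It has no sequence-specific DNA-binding domain of its own and is brought to chromatin within complexes such as Sin3 and NuRD. It is best known for its part in transcriptional repression and silencing, and a broad ChIP cluster is a stretch of several kilobases reported as 1 enriched interval.

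The replicate 1 list held 5550 clusters, of which 446 reached 6 kb, and the replicate 2 list held 5872 clusters, of which 272 did. Read depth behind the lists is unknown, and the inputs have no cluster list of their own. Each cluster carries the authors' score, taken to be on a log2 scale because of its range, since the headers name no scale. Scores were compared only within a list. Positions are on FlyBase release 5. The gene table at hand is of release 6, so domains are named by position and no genes, promoters or sequences are given, and the head origin of the chromatin could not be checked against marker genes. The domains were chosen by their measured width in the combined list. Since the 2 replicates are the samples that list combines, their widths, scores and overlaps are given as descriptions without tests.

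The domains were mostly little wider than the limit. Their median width was 7453 bp, 350 of the 570 (61.4%) were under 8 kb, 87 reached 10 kb and 10 reached 15 kb. The widest measured 26657 bp, and the median of the 6816 narrower clusters was 2353 bp. Just inside the limit lay domains of 6001 bp at 3R:22083322-22089322 and X:9085638-9091638, and 1 of 6009 bp at 3L:18858022-18864030. Just outside it lay clusters of 5989 bp at 2L:6782724-6788712, 5987 bp at X:13177752-13183738 and 5975 bp at 3L:18664088-18670062. The 3 narrowest domains scored 1.01, 1.36 and 1.05, against 0.44, 1.61 and 0.92 for the 3 clusters just outside.

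The large euchromatic arms carried 568 of the 570 domains, and 96.3% of all combined clusters lay there too. There were 140 domains on 3R, 115 on 2R, 112 on X, 102 on 3L and 99 on 2L. Chromosome 4, the small and largely heterochromatic autosome, had the remaining 2. Per Mb of sequence there were 5.44 domains on 2R, 5.02 on 3R, 4.99 on X, 4.30 on 2L and 4.16 on 3L. Clusters of 6 kb or more in the single replicates gave 4.16 and 2.55 per Mb on 2R, 3.91 and 2.22 on 3R, 3.79 and 2.50 on X, 3.52 and 2.30 on 2L, and 3.34 and 1.87 on 3L, for replicates 1 and 2 in turn. In both replicates 2R was the densest and 3L the sparsest of the large arms, while the order of X, 2L and 3R differed between them. The narrower clusters were also densest on 2R, at 64.3 per Mb against 50.7 to 54.9 on the other large arms. Domains made up 7.80% of the 2R clusters, near the 7.72% over the whole list.

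The X carried domains at 1.06 times the density of the autosomal arms, against 0.940 times for the narrower clusters. Clusters of 6 kb or more gave a ratio of 1.02 in replicate 1 and 1.12 in replicate 2, a spread wider than the distance of the combined ratio from 1. Over domains of 8000 bp or more the ratio was 0.998. Domains made up 8.72% of the X clusters (95% exact interval 7.23 to 10.4) and 7.82% of the autosomal-arm clusters (7.15 to 8.54). These intervals allow only for the counting of clusters, and they overlap.

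**Figure D1:**
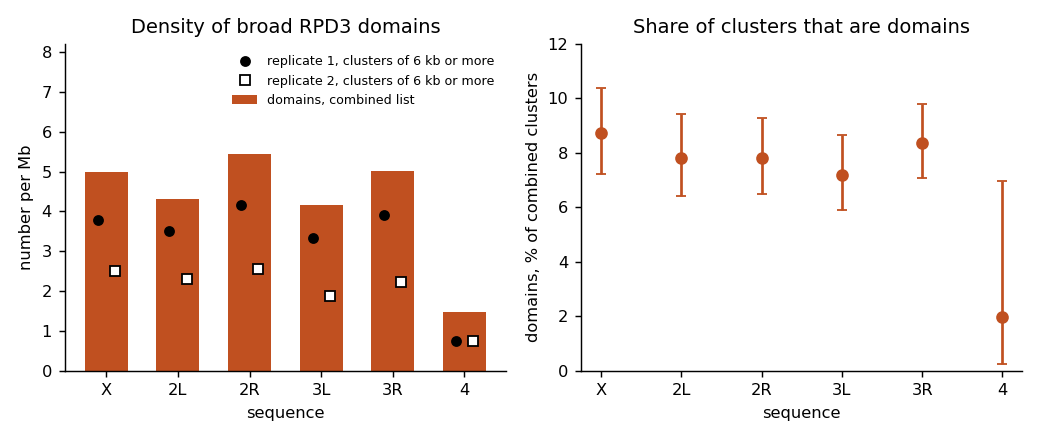
Left, domains per Mb (y axis) on each large arm and chromosome 4 in the combined list (bars), with the density of clusters of 6 kb or more in each replicate (points). Right, the percentage of combined clusters that were domains, with 95% exact intervals over clusters. The large arms lay between 7.19% and 8.72%, and chromosome 4 at 1.98%.

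The heterochromatic and unplaced scaffolds held none. The 7 scaffolds with clusters, which are 6 pieces of centromeric and Y heterochromatin and the unplaced pool U, had 170 combined clusters and 0 domains, which allows a share of up to 1.76%. Their median cluster width was 1336 bp and the widest, on 2LHet, measured 5413 bp. Neither replicate had a scaffold cluster of 6 kb, among 63 in replicate 1 and 62 in replicate 2. On chromosome 4, 2 of 101 clusters were domains (1.98%, 95% exact interval 0.241 to 6.97), and both were 9295 bp wide. The domain at 4:1046162-1055456 scored 0.86 and was 93.7% covered in replicate 1 and 89.5% in replicate 2, by 1 cluster in each. The domain at 4:1279844-1289138 scored 0.50, among the lowest of all domains, and was covered over 89.9% and 83.8% of its length by 2 clusters in each replicate.

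Domains were also thin at the centromere ends of 4 of the 5 large arms. Within 2 Mb of that end there were 1.5 domains per Mb on X against 5.34 over the rest of the arm, 2 against 4.52 on 2L and 1 against 4.44 on 3L. On 2R the centromere-proximal 2 Mb had 60 clusters and 0 domains, which allows a share of up to 5%, against 6.01 domains per Mb over the rest. On 3R the densities were 4.5 and 5.06. The narrower clusters within these 2 Mb numbered 48 on X, 51 on 2L, 60 on 2R, 30 on 3L and 124 on 3R. Over whole arms they lay at 52.3 per Mb on X, 50.7 on 2L, 64.3 on 2R, 53.7 on 3L and 54.9 on 3R. They too were thin at the ends of X, 2L, 2R and 3L, so this was not particular to domains. Of all clusters in these ends, domains made up 5.88% on X, 7.27% on 2L, 6.25% on 3L and 6.77% on 3R, against 7.72% of all combined clusters.

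Along the arms the gaps between domains ranged widely, from tight groups to long stretches without a domain. No background from all clusters or from random placement is given for these gaps or for the runs below. Whether domains group more than such a background was not tested. The 564 gaps between neighbouring domains had a median of 103 kb and a mean of 189 kb, from 9 bp to 1569 kb, with quartiles of 25.7 and 273 kb. Gaps under 10 kb made up 14.5% (82 of 564, 95% exact interval 11.7 to 17.7) and gaps under 20 kb 21.5%. In the replicate lists, gaps between clusters of 6 kb or more were under 10 kb in 11.1% of cases in replicate 1 (49 of 440) and 7.89% in replicate 2 (21 of 266), with medians of 133 and 246 kb. The shorter list of replicate 2 thus gave a median gap over 1.5 times that of the combined list.

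2L was the arm with the most uneven spacing. It had the shortest median gap, 68.6 kb, against 82.0 kb on 2R, 106 kb on 3R, 108 kb on X and 146 kb on 3L. It also had 5 of the 7 gaps over 1 Mb, the longest at 2L:16884494-18453242 (1569 kb), which held 49 narrower clusters. The others over 1 Mb lay on 3L (1158 kb) and 3R (1029 kb). These 7 gaps held from 42 to 93 narrower clusters each, so they were empty of domains only. Gaps under 10 kb were 18.4% of all on 2L, 16.7% on 2R, 16.5% on 3R, 14.4% on X and 5.94% on 3L. 3L had the lowest share of such gaps in each replicate list as well, 3.70% (3 of 81) in replicate 1 and 2.22% (1 of 45) in replicate 2, and 2L had the highest, 15% (12 of 80) and 15.4% (8 of 52). The counts behind these shares are small.

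**Figure D2:**
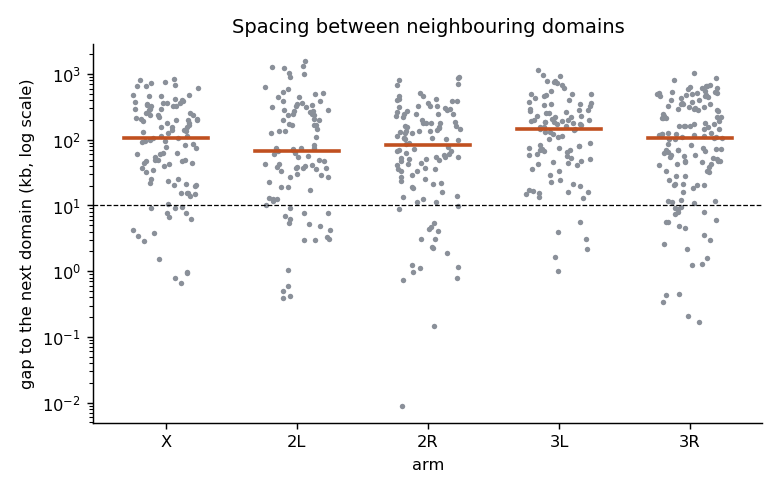
Gap from each domain to the next on the same arm in kb (y axis, log scale), with 1 point per gap and the median as a bar. The dashed line marks 10 kb. 3L has the fewest points under the line and the highest median, 146 kb, and 2L has both the lowest median, 68.6 kb, and the longest gap, 1569 kb.

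Over 117 full windows of 1 Mb on the large arms the median was 5 domains, and 5 windows had none. These empty windows held 10 to 42 narrower clusters (median 18, against 58 in windows with a domain). 4 of the 5 lay at a centromere end, on 2L, 2R (a pair) and 3L, and the remaining 1 was 2L:17000001-18000000, inside the longest gap. At the other extreme, 5 windows had 10 or more. The densest, 2R:5000001-6000000, had 13 domains and 93 narrower clusters. The next were 2L:1-1000000 and 3R:4000001-5000000 with 11 each, but these had only 53 and 43 narrower clusters. Across the 117 windows the numbers of domains and of narrower clusters had a Spearman's rho of 0.431, a description across neighbouring windows that share libraries.

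Joining domains less than 10 kb apart gave 72 runs with 154 of the 570 domains (27.0%), of which 63 were pairs, 8 had 3 members and 1 had 4. The run of 4, at 2R:19907604-19952928, spanned 45.3 kb, 77.5% of it within domains. Its members measured 11785, 6947, 7385 and 9007 bp and scored 1.15, 0.96, 1.18 and 1.18. Replicate 1 covered 76.2% of the run with 4 clusters and replicate 2 covered 70.2% with 5. The next longest runs had 3 members each. The run at 2L:6044840-6090042 spanned 45.2 kb, with members of 11523, 7677 and 13435 bp scoring between 1.04 and 1.19. The run at 2L:2728016-2771530 spanned 43.5 kb and was the least even, with a 17119 bp domain scoring 1.53 between members of 8465 bp scoring 0.55 and 7267 bp scoring 1.13. Runs were most numerous on 3R (22), followed by 2R (16), X (15), 2L (14) and 3L (5). These arms held 140, 115, 112, 99 and 102 domains in turn, so only 3L stood apart, with few runs for its domains.

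Where 2 domains lay close together, single replicate clusters rarely joined them. Of 29 gaps under 2 kb, a replicate 1 cluster spanned 4 and a replicate 2 cluster spanned none. The shortest gap, 9 bp at 2R:8155480-8155490, and gaps of 205 and 343 bp on 3R and 799 bp on 2R were those joined in replicate 1.

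Domains scored above the typical cluster. Their median score was 1.08, against 0.53 for the narrower clusters, and 558 of 570 exceeded the median of the whole combined list. Among the narrower clusters the median was 0.34 under 2 kb, 0.71 at 2 to 4 kb and 0.99 at 4 to 6 kb. The higher score was thus not particular to domains, as clusters just under the limit came close to it. Of the 100 highest-scoring combined clusters 3 were domains, where 7.72% of all combined clusters were, the best of them at rank 64, and the median width of those 100 was 2720 bp. In replicate 1, 6 of the 100 highest-scoring clusters reached 6 kb, where 8.04% of its clusters did. In replicate 2 it was 8 of 100, where 4.63% did, so the replicates lay on opposite sides of their background. The best ranks were 28 and 32. Score and width rose together in the narrower clusters (Spearman's rho 0.688, n = 6816) and hardly at all among domains (rho 0.102, n = 570). The values for clusters of 6 kb or more were 0.111 in replicate 1 and 0.100 in replicate 2. By arm the rho over domains was 0.236 on 2L, 0.211 on 3L, 0.0780 on 2R, 0.0454 on X and 0.0399 on 3R. These are descriptions across clusters that share their libraries. Domains and narrower clusters were set apart by width, so their rhos cover unlike ranges of it. Of the 570 domains, 350 lay between 6 and 8 kb. Over domains of 10 kb or more the value was slightly negative (rho -0.0374, n = 87). The median score was 1.05 at 6 to 8 kb, 1.13 at 8 to 10 kb, 1.15 at 10 to 15 kb and 1.06 over the 10 domains of 15 kb or more.

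**Figure D3:**
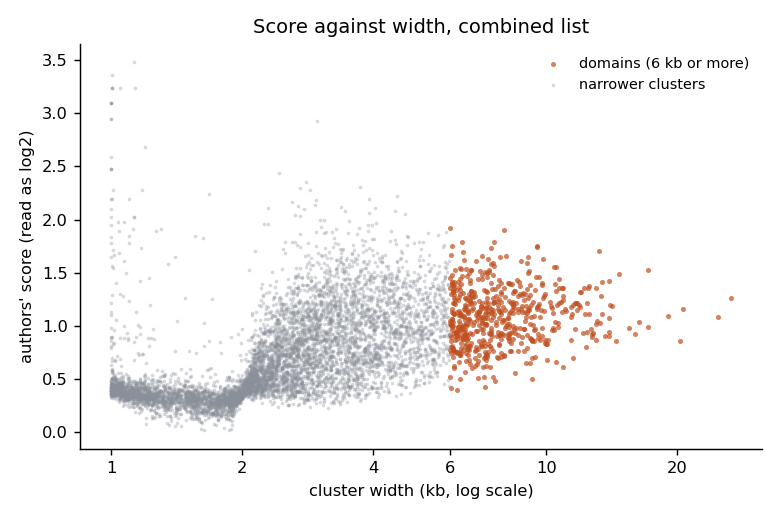
Authors' score (y axis, read as log2) against cluster width in kb (x axis, log scale) for the combined list, with domains in orange and narrower clusters in grey. Scores climb with width between 2 and 6 kb and stay level among the domains, whose highest score is 1.92.

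X domains scored higher than autosomal ones. The X held 19.6% of all domains and 6 of the 10 highest-scoring. By width it held 1 of the 10 widest, beside 5 on 3R and 4 on 2L, and 18 of the 87 domains of 10 kb or more (20.7%), close to its share of all domains. The median score was 1.16 for X domains and 1.06 for those of the autosomal arms, a gap of 0.10. Among clusters of 6 kb or more it was 1.27 against 1.08 in replicate 1 (gap 0.19) and 1.51 against 1.33 in replicate 2 (gap 0.18). The narrower X clusters also scored above the narrower autosomal ones in the combined list, 0.62 against 0.51, so the higher X score was not limited to domains.

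The highest-scoring domain, X:17778790-17784812, was also among the narrowest, with 6023 bp and a score of 1.92. It was covered over 92.5% in replicate 1 and 97.8% in replicate 2, each time by 1 cluster, which ranked 20 of 5550 and 92 of 5872 by score. X:8300002-8308016 scored 1.90 over 8015 bp and was 99.3% and 97.6% covered. X:7859480-7867078 scored 1.79 over 7599 bp, but clusters covered only 56.5% of it in replicate 1 and 79.5% in replicate 2. X:8978750-8985154 (score 1.78) was 97.6% and 95.7% covered. On 3L the domain at 3L:3221570-3227652 (score 1.75) was 99.9% and 98.5% covered, and the replicate 1 cluster there, which began before the domain, was 10228 bp wide.

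The lowest-scoring domains were only partly covered in at least 1 replicate. The lowest, 2R:8155490-8161732, scored 0.39 and met 3 clusters of replicate 1 (73.1% of its length) and 1 of replicate 2 (31.2%). It begins 9 bp after the end of its neighbour. The third lowest, 2L:7789334-7796574, scored 0.42 and was 80.2% and 50.5% covered, by 3 and 2 clusters.

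Almost every domain overlapped clusters of both replicates, which are the samples that the combined list combines. For wide clusters of that list such an overlap was likely from the outset, so these shares are descriptions only. Of the 570, 568 overlapped a cluster in each by at least 1 bp (99.6%, 95% exact interval 98.7 to 100.0), where the rate over all combined clusters was 61%. The share went with width and was 97.7% for clusters of 4 to 6 kb and 83.9% for those of 2 to 4 kb. Requiring at least 50% of the length covered in each replicate left 544 domains (95.4%), against 58.4% of all combined clusters. Requiring 90% left 151 (26.5%), against 17.7% of all combined clusters. The 2 domains without a replicate 1 cluster both lay on X. X:2193762-2200964 (7203 bp, score 0.52) was 99.5% covered by 1 replicate 2 cluster. X:13170274-13176316 (6043 bp, score 0.42) was 78.7% covered by 1 replicate 2 cluster, and 1435 bp after it begins the X cluster of 5987 bp that missed the limit.

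The share of a domain's length that was covered averaged 86.3% ± 0.305 (SD over replicates, n = 2). In replicate 1 it had a median of 91.1% and a range of 0 to 100%, and in replicate 2 a median of 89.95% and a range of 21.3 to 100%. Replicate 1 covered more of 289 domains and replicate 2 covered more of 281. Both replicates at once covered a median of 79.1%, and either covered 98.9%. Clusters of 4 to 6 kb had medians of 90.8% in replicate 1, 91.0% in replicate 2 and 77.4% in both at once. For clusters of 2 to 4 kb these were 90.1%, 92.6% and 80.2%. Coverage this high was thus not particular to domains. The shares of the 2 replicates had a Spearman's rho of -0.13 over the 570 domains, which share their libraries. All combined clusters include 2463 under 2 kb, whose median covered share was 0% in each replicate. Fewer than 50% was covered in 18 domains in replicate 1 (3.16%, against 31.8% of all combined clusters) and in 8 in replicate 2 (1.40%, against 26.4%). The clearest case with clusters in both was X:13289878-13297218 (7341 bp, score 0.76). A single replicate 1 cluster covered 99.8% of it, whereas 2 replicate 2 clusters covered 21.3% and left 5586 bp between them, the longest such gap of all. The right-hand replicate 2 cluster began at X:13297212, just inside the domain end. Nearly all of the replicate 2 coverage thus came from the left-hand cluster of 1554 bp.

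**Figure D4:**
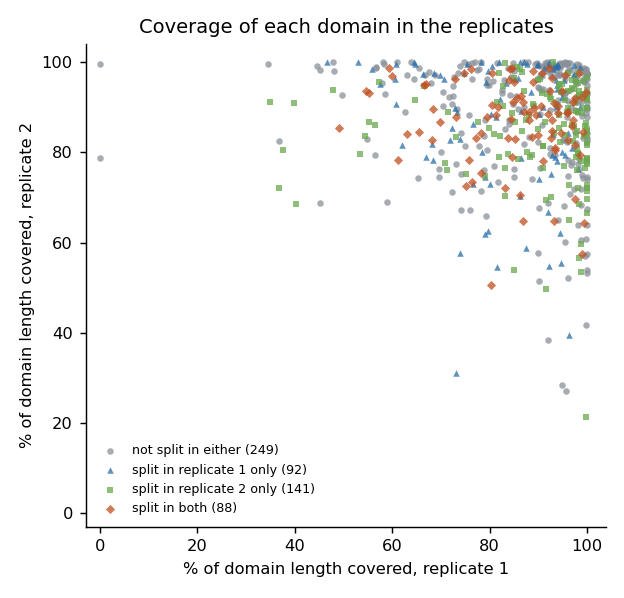
Percentage of each domain's length covered by clusters of replicate 1 (x axis) and replicate 2 (y axis), with 1 point per domain, marked by whether it was split in a replicate. The medians are 91.1% and 89.95%, 2 points lie at 0% in replicate 1, and the lowest value in replicate 2 is 21.3%. The 249 domains not split in either include those 2.

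Coverage was lowest at the domain ends. Averaged over domains and in steps of 5% of the length, the first step was covered in 55.7% of bases in replicate 1 and 54.2% in replicate 2, and the last in 58.0% and 54.7%. Between 20% and 80% of the length, coverage stayed between 90.8% and 94.3% in both. The median replicate cluster began 125 bp inside the domain start in replicate 1 and 130 bp inside it in replicate 2, and stopped 102 and 120 bp short of the domain end.

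The domain ends followed replicate 2 more closely than replicate 1. Both ends lay within 250 bp of the outermost cluster ends for 41.6% of domains in replicate 2 (237 of 570, 95% exact interval 37.5 to 45.7) and for 21.8% in replicate 1 (124 of 570, 18.4 to 25.4). Replicate 1 clusters ran more than 1 kb past the start of 38 domains and past the end of 49, replicate 2 clusters past 1 and 2. The same measures over narrower clusters are not given, so this pattern is not shown to be particular to domains. No label or header says how the replicates were combined, and what sets the ends was not tested.

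Many domains were not a single cluster in the replicates. Under the 1 bp rule a replicate cluster that met only the edge of a domain also counted towards a split. In replicate 1, 180 of 570 were split into 2 or more clusters (31.6%, 95% exact interval 27.8 to 35.6), where the rate over all combined clusters was 4.36%. In replicate 2 it was 229 (40.2%, 36.1 to 44.3), against 4.68% of all combined clusters. The mean was 35.9% ± 6.08 (SD, n = 2). Longer intervals can hold more breaks, and the share climbed with width: 24.3% and 32.9% of domains of 6 to 8 kb were split in replicates 1 and 2, 38.3% and 48.1% of those of 8 to 10 kb, 51.9% and 53.2% of those of 10 to 15 kb, and 4 and 9 of the 10 wider ones. Clusters of 4 to 6 kb were split in 9.97% and 10.3% of cases. Taken over both replicates, 247 domains (43.3%) were 1 cluster in each, 92 were split in replicate 1 only, 141 in replicate 2 only and 88 in both (15.4%). Over all combined clusters 53.6% were 1 cluster in each and 1.48% were split in both. Pieces numbered 3 or more in 20 domains in replicate 1 and in 30 in replicate 2.

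Most breaks were wholly covered in the other replicate. Those of replicate 1 (203) had a median of 490 bp and those of replicate 2 (257, beside 3 places where clusters touch) a median of 374 bp, with the longest at 4350 and 5586 bp. Of the replicate 1 breaks, 134 (66.0%) were wholly covered by replicate 2 clusters, 48 (23.6%) were partly covered and 21 (10.3%) had no replicate 2 coverage at all. For replicate 2 breaks, 191 (74.3%) were wholly covered in replicate 1, 40 (15.6%) were partly covered and 26 (10.1%) were not covered there at all. The domains come from a list that combines both replicates, and either replicate covered a median of 98.9% of a domain. A break in 1 replicate was thus likely from the outset to be covered in the other, so these shares are descriptions only. Breaks under 500 bp made up 50.7% and 60.7%. With replicate clusters under 500 bp apart joined, the mean split share was 16.6%, against 35.9% without joining.

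Split domains scored lower than unsplit ones in spite of being wider. In replicate 1 the median combined score was 1.01 for the 180 split and 1.11 for the 388 unsplit domains, with median widths of 8197 and 7268 bp. In replicate 2 it was 1.00 for the 229 split and 1.13 for the 341 unsplit, with widths of 7979 and 7257 bp. Within the 6 to 8 kb domains the gap was larger, 0.95 against 1.08 by replicate 1 and 0.94 against 1.11 by replicate 2. The 88 domains split in both had a median score of 1.01 and the 247 that were 1 cluster in both had 1.16. Score and splitting come from the same libraries, so this is a description.

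The 10 widest domains show the range of these patterns. The widest, 2L:11986602-12013258 (26657 bp), had 2 clusters in each replicate with breaks of only 416 and 102 bp, and 95.9% of it was covered in both. The pieces scored, in order of position, 0.96 and 1.40 in replicate 1 and 0.86 and 1.82 in replicate 2, so the right-hand piece scored higher in each. 3R:5902446-5927310 (24865 bp) was the most uniform, with 96.7% covered in both, 1 cluster in replicate 2, and in replicate 1 a 1791 bp cluster set off by 218 bp from 1 of 22455 bp.

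In 3R:4863740-4884392 (20653 bp) replicate 1 had 1 cluster over 99.5% of the length, while replicate 2 had clusters of 2990 and 12816 bp with 4650 bp uncovered between them (76.5%). 3R:17846958-17863320 (16363 bp) was similar, with 1 cluster over 96.3% in replicate 1 and 3 clusters over 72.6% in replicate 2, the longest break 3466 bp. X:1963632-1979120 (15489 bp) was the domain with most replicate 2 clusters, 4 over 79.0%, against 1 over 88.3% in replicate 1. In 3R:14739136-14756236 (17101 bp) a replicate 1 cluster began 3984 bp inside the start and 3 replicate 2 clusters left breaks of up to 2191 bp, so that both covered 75.2% but only 52.1% in common.

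The opposite pattern was seen at 2L:4996360-5012356 (15997 bp), where replicate 1 had 4 clusters over 84.6% and replicate 2 had 2 over 98.6%. 3R:11185886-11206160 (20275 bp, score 0.85) was broken in both, into 4 and 3 clusters over 86.9% and 91.2%. The remaining 2 of the 10 were 1 cluster in replicate 1. 2L:4964968-4984032 (19065 bp) had 3 clusters in replicate 2 with breaks of at most 298 bp, and 2L:2744178-2761296 (17119 bp, score 1.53, the highest of the 10) had 2. Of the 10, then, 6 were 1 cluster in replicate 1 and 1 was 1 cluster in replicate 2.

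**Figure D5:**
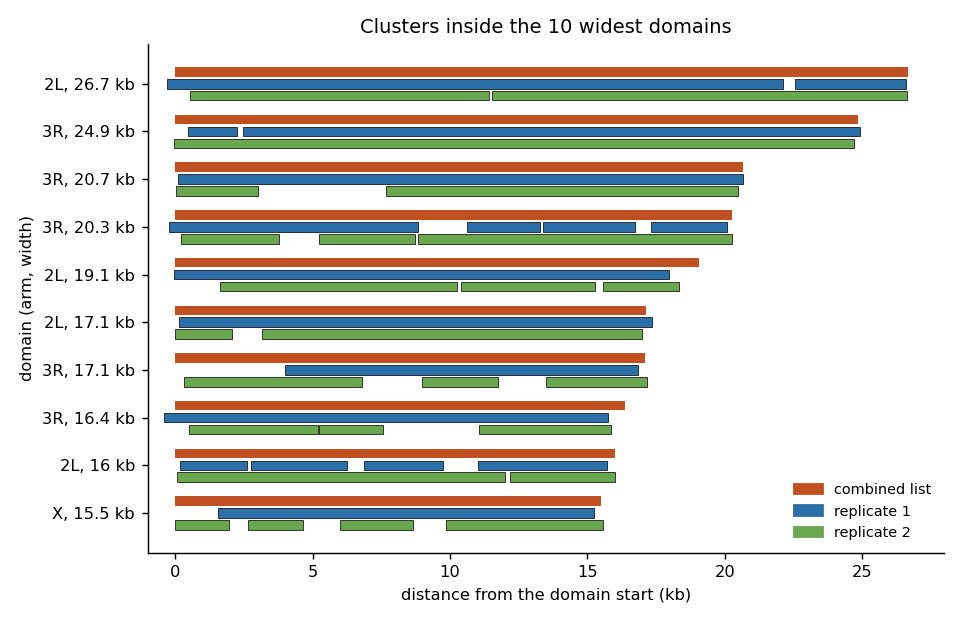
The 10 widest domains (orange) with the clusters of replicate 1 (blue) and replicate 2 (green) that overlap them, drawn to scale as distance in kb from each domain's start. Of the 10, 6 are 1 cluster in replicate 1, while 9 are broken in replicate 2.

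The widest domains of the other sequences were smaller. On 2R it was 2R:17544538-17558994 (14457 bp, score 0.86), with 2 clusters over 89.5% in replicate 1 and 3 over 88.3% in replicate 2. On 3L it was 3L:16400000-16413962 (13963 bp, score 1.08), with 2 clusters in each, over 89.0% and 95.5%. The domain of 12171 bp at 2R:20663980-20676150 was the third with 4 replicate 1 clusters, over 85.7%, against 2 in replicate 2 over 92.0%.

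To describe wide clusters by a replicate that did not choose them, clusters of 6 kb or more were taken from 1 replicate and looked up in the other. Of the 446 in replicate 1, 442 overlapped replicate 2 (99.1%, 95% exact interval 97.7 to 99.8), against 82.5% (81.5 to 83.6) of its narrower clusters. Of the 272 in replicate 2, 271 overlapped replicate 1 (99.6%, 98.0 to 100.0), against 81.4% (80.3 to 82.4) of its narrower clusters. A wide cluster meets the 1 bp rule more easily, so the covered share is given beside it. For wide replicate 1 clusters the median share covered in replicate 2 was 82.8%, below the 90.4% of the narrower ones. For wide replicate 2 clusters it was 92.1% in replicate 1, close to the 91.4% of the narrower ones. The width recurred less often than the overlap. The other replicate had a cluster of 6 kb or more at 162 of the 446 (36.3%, 31.9 to 41.0) and at 163 of the 272 (59.9%, 53.8 to 65.8). Of all clusters, 4.63% reached 6 kb in replicate 2 and 8.04% in replicate 1. Wide replicate 1 clusters met 2 or more replicate 2 clusters in 46.2% of cases, and wide replicate 2 clusters met 2 or more replicate 1 clusters in 27.6%.

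The same held seen from the combined list. A cluster of 6 kb or more was met in both replicates by 161 of the 570 domains (28.2%), in replicate 1 only by 172, in replicate 2 only by 105 and in neither by 132 (23.2%). Over all combined clusters the shares were 2.18% for both, 5.75% for replicate 1 only, 1.5% for replicate 2 only and 90.6% for neither. Conversely, 268 of the 272 wide replicate 2 clusters met a domain (98.5%), and 334 of the 446 wide replicate 1 clusters did (74.9%). Domains were 7.72% of combined clusters, but the share of narrower replicate clusters that met a domain is not given. The replicates also make up the list whose widths chose the domains, so these shares are descriptions only. The other 112 wide replicate 1 clusters, up to 11215 bp wide, met combined clusters whose widest had a median of 4733 bp. Of these 112, 83 met 2 or more such clusters.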

How the data were processed

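RPD3 ChIP samples were aligned with Bowtie 0.12.7, per the submitters' processing notes. No label or header names the peak-calling program, its cutoff, the input scaling, the read depth or how the lists were combined. The deposited scores were read as log2 ratios from their values, as the headers do not name the scale, and were never compared between lists. Positions are on FlyBase release 5, per the file headers. The 1 region named as depleted was left out.

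Domains were combined clusters of 6000 bp or more, and overlap meant at least 1 bp. Covered share is the percentage of a domain's bases inside a replicate cluster, and a break is the distance between neighbouring replicate clusters that overlap 1 domain. Shares carry 95% exact (Clopper-Pearson) intervals, and the limit for a count of 0 is 3 counts of the total. Both cover counting error over clusters only, and clusters are not independent replicates. With 2 ChIP samples of 1 group no test between samples was possible, and none was run.

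Named regions were the 10 widest, the 5 highest- and 3 lowest-scoring domains, those missed by a replicate, the 3 most split in each replicate, the 3 least covered in both, the 3 largest runs, the widest of each sequence, and the 3 on each side of the limit. Other positions (windows, longest gaps, joined gaps, chromosome 4) were chosen after their values were seen. The domains and the measures were chosen with earlier results of these data known. The overlap functions recovered planted values in simulated lists. Alternatives were other width limits, large arms only, joining of clusters under 500 bp apart, stricter overlap and each replicate alone. Work used Python 3.11.15, numpy 2.4.6, scipy 1.17.1, pandas 2.3.3 and matplotlib 3.10.9.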

Additional observations from a re-analysis of the deposited data

How the results depend on the processing

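Of 63 alternatives, 32 stayed within the spread between replicates, the exact interval or 1.5 times the count, 30 moved and 1 reversed. Some of the 32 could hardly have moved. Large arms only kept 568 of the 570 domains. Each replicate alone had to stay for the covered and split shares, which are means over the replicates. The count of 32 is thus no measure of robustness. With width limits of 5000, 8000 and 10000 bp the number of domains was 913, 220 and 87, and it was 272 in the replicate 2 list. The share overlapping both replicates was 100% at 8000 and at 10000 bp, 95.4% with at least 50% covered in each, and 28.2% where each had to hold a cluster of 6 kb or more. The covered share was 87.9% at 8000 bp, 88.6% at 10000 bp, 81.7% with combined clusters under 500 bp apart joined, 87.0% with replicate clusters so joined, and 90.5% as a median over domains. The split share was 28.6%, 47.5% and 54.0% at the 3 width limits, 52.9% with combined clusters joined and 16.6% with replicate clusters joined. Each replicate alone gave 86.1% to 86.6% for the covered share and 31.6% to 40.2% for the split share. The median gap was 334 kb at 8000 bp, 784 kb at 10000 bp and 246 kb in the replicate 2 list. It fell to 55.3 kb at 5000 bp and to 64.0 kb with combined clusters joined. Both counted as unmoved only because the spread between the replicate lists was 79.5 kb. A higher width limit leaves fewer domains by construction. The rho of score and width was 0.142, 0.0302 and, reversed, -0.0374 at the 3 limits, 0.111 with combined clusters joined and 0.111 in the replicate 1 list. Within arms it was 0.0454 on X, 0.236 on 2L, 0.0780 on 2R, 0.211 on 3L and 0.0399 on 3R. For the other values that moved, the cause was not tested. The X density ratio stayed within the spread between replicates under the 8 alternatives tried for it, but fell below 1 (0.998) at 8000 bp. Large arms only could not change this ratio, which uses no other sequences. The ratios of the replicate lists themselves set the spread they were judged by. The gaps by arm, the median over domains and the 6 kb requirement in each replicate were chosen after seeing the data. No paired analysis was possible because both ChIP replicates belong to 1 group and no list of the inputs was used here. Depth is unknown, so its limits are not given.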

Other observations

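Domains lay somewhat closer to other clusters than narrower clusters did. The median distance from a domain to the nearest other combined cluster was 1375 bp, against 2068 bp for the narrower clusters and 1507 bp for those of 4 to 6 kb. In the combined list 11.6% of all gaps between clusters were under 500 bp, and joining across them raised the number of domains to 816.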
